A study of Mus musculus with 4 samples.

Results

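The genes of hepatic gluconeogenesis, the urea cycle and amino acid catabolism were described in mouse liver as a set of 32 genes named by symbol: 6 of gluconeogenesis and its control, 5 of the urea cycle and 21 of amino acid catabolism. Each gene was read from its probe set of highest mean signal. Of the 32 genes, 30 had a probe set annotated to that gene alone, among 18193 such genes on the array. Sds and Gls2 were not analysed here. All 30 passed the low-level filter, as did 11513 of the 18193 genes, and 28 of the 30 lay among the 3837 genes with the highest signals.

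Liver RNA came from C57BL/6J mice aged 2 months injected intraperitoneally in 2 successive exposures, each with the aromatic solvent ethylbenzene or with phosphate-buffered saline (PBS). Group E+E received ethylbenzene in both exposures, group P+E received PBS and then ethylbenzene, group E+P received ethylbenzene and then PBS, and group P+P received PBS in both. The first exposure was 2 injections 24 h apart, the second came after 7 days of normal feeding, each ethylbenzene dose was 7 mmol per kg, and livers were taken 5 h after the second exposure. RNA of 5 mice (E+E and P+E) or 3 mice (E+P and P+P) was pooled by group and read on 1 Affymetrix array per group. There were no replicates, so no difference could be set against the spread between animals and no p-value is given. The number of mice in a pool went with the second exposure, and the 2 cannot be told apart.

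Gluconeogenesis makes glucose from lactate, glycerol and amino acid skeletons, mainly in the hepatocytes of the liver. Insulin restrains its genes through the transcription factor FOXO1, while glucagon, through cyclic AMP and CREB, and glucocorticoids raise them with the coactivator PGC-1α. Amino acid catabolism supplies the carbon skeletons and releases nitrogen, which the urea cycle turns into urea. Many of these enzymes are among the most abundant transcripts of hepatocytes, and several, such as tyrosine aminotransferase, are classical targets of glucocorticoids.

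The second exposure was read as P+E over P+P in mice given PBS first and as E+E over E+P in mice given ethylbenzene first. The first exposure was read 7 days later as E+P over P+P and as E+E over P+E. Within each of these pairs the ratios share no array. Signals below are quantile-normalized and ratios are on the log2(signal + 43.2) scale, on which 1 is 2-fold. A gene was counted as different where a ratio was at least 2-fold, a fixed rule of size that describes 2 arrays. The signal at the filter was 120.0. In pooled liver RNA, fewer hepatocytes and less RNA per hepatocyte cannot be told apart.

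The arrays differed in ways other than the labels. The geometric mean signal of the 18S ribosomal RNA probe sets was 182 on E+E, 145 on P+E, 122 on E+P and 1872 on P+P, while the control probe sets for Actb had geometric means of 30540, 24573, 22081 and 8928 in the same order. Summed signals of 11 measured hepatocyte markers lay between 1274620 and 1423439. None of these markers was at least 2-fold higher in both second-exposure ratios, beside 2.87% of all genes. Of 8 pancreatic acinar markers past the filter, 7 were at least 2-fold higher in both second-exposure ratios, beside 2.87% of all genes. Summed signals over the 9 measured markers were 8233 on E+E, 8177 on P+E, 2516 on E+P and 3113 on P+P. Of 5 neutrophil markers past the filter, S100a8 and S100a9 were at least 2-fold higher in both, beside 2.87% of all genes. The 5 ran from -1.51 to 3.62 in P+E over P+P, with 2 below 0. In E+E over E+P they ran from 0.05 to 4.83. Summed signals over the 8 measured markers were 6684, 4561, 864 and 1408 in the same order of arrays. The part of these differences in the results below was not tested.

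Promoter sequence is shown for the genes on which the results turn: G6pc, the single gene of the set at least 2-fold different in both first-exposure ratios, Pck1, the gluconeogenic enzyme gene at least 2-fold lower in a second-exposure ratio, and Aass and Gldc, the genes with the highest ratios of P+E over P+P. The 250 bases before the RefSeq start (GRCm38.p6) are given 5′ to 3′ on the strand of the gene. They are chr11:101367466-101367715 (plus strand) for G6pc, chr2:173152823-173153072 (plus) for Pck1, chr6:23132987-23133236 (minus) for Aass and chr19:30175442-30175691 (minus) for Gldc. Capitals mark letters that match a motif searched on both strands.
G6pc: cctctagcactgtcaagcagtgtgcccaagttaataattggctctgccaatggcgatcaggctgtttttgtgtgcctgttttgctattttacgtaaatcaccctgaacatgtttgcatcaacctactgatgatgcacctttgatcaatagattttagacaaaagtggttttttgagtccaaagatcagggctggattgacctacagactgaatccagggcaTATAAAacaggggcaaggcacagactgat
Pck1: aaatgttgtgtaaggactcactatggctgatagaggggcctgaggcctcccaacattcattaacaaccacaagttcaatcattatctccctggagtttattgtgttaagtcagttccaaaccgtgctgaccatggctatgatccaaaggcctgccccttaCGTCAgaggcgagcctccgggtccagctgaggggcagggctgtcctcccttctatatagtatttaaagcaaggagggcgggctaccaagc
Aass: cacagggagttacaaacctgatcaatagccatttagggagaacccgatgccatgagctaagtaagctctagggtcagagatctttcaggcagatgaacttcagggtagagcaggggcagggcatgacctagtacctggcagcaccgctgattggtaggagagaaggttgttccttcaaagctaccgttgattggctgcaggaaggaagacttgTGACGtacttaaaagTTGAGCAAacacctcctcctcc
Gldc: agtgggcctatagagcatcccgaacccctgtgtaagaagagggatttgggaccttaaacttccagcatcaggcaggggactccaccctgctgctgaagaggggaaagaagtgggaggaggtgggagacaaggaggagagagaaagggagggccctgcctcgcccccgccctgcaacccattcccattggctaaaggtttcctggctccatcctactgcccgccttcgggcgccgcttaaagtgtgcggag

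The capitals in G6pc are a TATA box (TATAAA) beginning at -29. In Pck1 they are a CRE half-site (TGACG, here on the other strand) at -90, a sequence bound by CREB. Aass held a CRE half-site at -37 and a C/EBP motif at -22, which do not overlap. The C/EBP motif (TTGCNNAA, the letters shared by sites of the C/EBP factors) is here on the other strand. Gldc held none of the 8 motifs searched. A RefSeq promoter window, reaching 250 bases before and 50 after the start, was at hand for 25 of the 30 genes (26 windows, since Pcx had 2).

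The CRE half-site occurred in 15.4% of the windows of the set (Aass, Oat, Pck1 and Ppargc1a), against 20.8% of all 32841 windows. The full CRE palindrome (TGACGTCA, which contains the half-site) occurred in none of the set and in 1.79% of all windows. The FOXO motif (TGTTTAC) occurred in none of the set and in 3.65% of all windows. The C/EBP motif stood in 11.5% of the windows of the set and 10.8% of all windows, and the TATA box in 15.4% and 13.6%. The glucocorticoid receptor core (ACANNNTGT) was found in 11.5% of the windows of the set (Bhmt, Hal and Tdo2) and in 6.85% of all windows. The E-box (CACGTG) occurred in 7.69% of the windows of the set (Ass1 and Pcx) and 7.15% of all windows, and the D-box (TTATGNAA) in 3.85% (Otc) and 3.39%. These shares count letters in short windows and show no binding.

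After the second exposure, the gluconeogenesis genes other than Pcx had ratios below 0 on the probe sets used. Of the 11513 genes, 6389 were below 0 in P+E over P+P and 6239 in E+E over E+P. No urea cycle gene reached 2-fold. A group of amino acid catabolism genes led by Aass, Gldc and Bhmt stood higher. By order of arrays, 8 of 19 catabolism genes were higher and 5 lower, beside 22.3% and 31.1% of all genes. In P+E over P+P, 3 of the 30 genes were at least 2-fold higher (Aass, Gldc and Bhmt), beside 6.53% of the 11513 genes, and none was at least 2-fold lower, beside 6.7%. In E+E over E+P, none was at least 2-fold higher, beside 6.91%, and 2 were at least 2-fold lower (Pck1 and Ppargc1a), beside 6.75%. None was at least 2-fold higher in both ratios, beside 2.87% of all genes, or lower in both, beside 1.86%.

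With 1.5-fold as the rule, Got1, Aass and Gldc were higher in both ratios (3 of 30, beside 6.46% of all genes) and Ppargc1a was lower in both (1 of 30, beside 6.58%). Without a rule of size, both ethylbenzene arrays lay above both PBS arrays for 10 of the 30 genes, beside 22.3% of all genes, and below them for 11 of the 30, beside 31.1%. Among the 3837 genes with the highest signals these shares were 24.9% and 40.6%. The median ratio of the 30 genes was 0.06 in P+E over P+P, where that of all genes was -0.07, and -0.15 in E+E over E+P, where that of all genes was -0.05. Beside all genes the counts past 2-fold were thus close. Among the 3837 genes with the highest signals, 5.39% were at least 2-fold higher in P+E over P+P and 2.97% lower. In E+E over E+P these shares were 5.86% and 3.36%. With 30 genes, each count of the set rests on single genes.

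**Figure D1:**
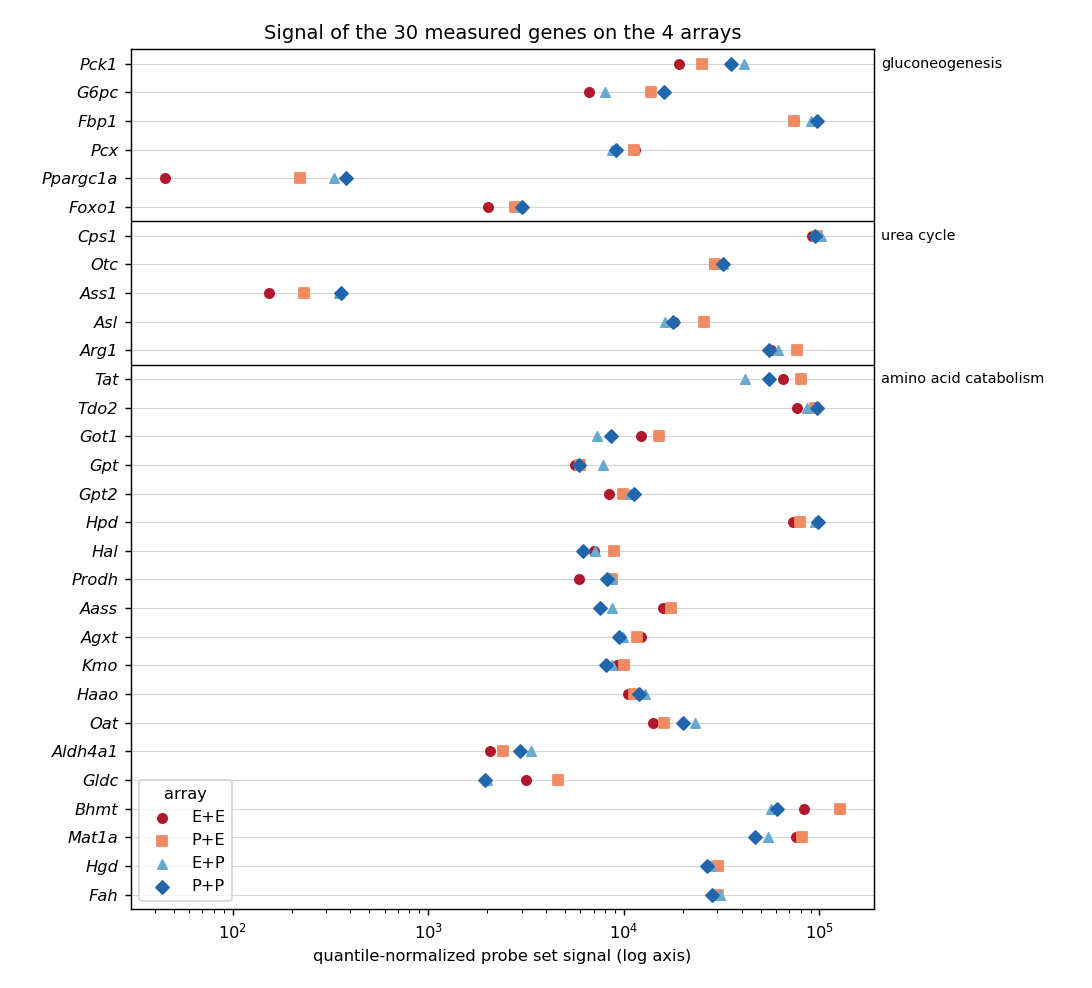
Quantile-normalized signal (log axis) of the 30 measured genes on the 4 arrays, 1 point per array, grouped by function. Signals can be compared between arrays for 1 gene, not between genes; the E+E and P+E points of Fbp1 coincide at 73828, and the E+E point of Ppargc1a (45.0) lies below the filter level of 120.0.

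Among the gluconeogenic enzymes, Pck1 encodes phosphoenolpyruvate carboxykinase, which turns oxaloacetate into phosphoenolpyruvate. Its signal was 19056 on E+E and 25116 on P+E, against 40929 on E+P and 35468 on P+P. Both ethylbenzene arrays lay below both PBS arrays, and the gap was wider in mice given ethylbenzene first: the ratio was -0.50 in P+E over P+P and -1.10 (2.15-fold lower) in E+E over E+P. With the mean of its 3 probe sets these ratios were 0.38 and -0.14, so the direction of the first turned. A further Pck1 probe set past the filter gave 7938 on E+E, 11542 on P+E, 17392 on E+P and 12728 on P+P, with ratios of -0.14 and -1.13. The last Pck1 probe set lay below the filter level on every array, with signals of 117.7 and 117.0 on the ethylbenzene arrays against 3.2 and 3.1 on the PBS arrays.

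G6pc encodes the catalytic subunit of glucose-6-phosphatase, which releases free glucose. Its signal was 6625 on E+E, 13685 on P+E, 7977 on E+P and 16133 on P+P, and it was read by 1 probe set. Its second-exposure ratios were small, at -0.24 in P+E over P+P and -0.27 in E+E over E+P. G6pc separated instead by the first exposure, as described below.

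Fbp1 encodes fructose-1,6-bisphosphatase, the step between the reactions of Pck1 and G6pc. It had signals of 73828 on both E+E and P+E, against 90455 on E+P and 96784 on P+P, and ratios of -0.39 (P+E over P+P) and -0.29 (E+E over E+P). As deposited, before quantile normalization, these ratios were -0.14 and -0.13. At such high signals the normalization fixes the value of each rank.

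Pcx encodes pyruvate carboxylase, which makes oxaloacetate from pyruvate and also feeds the citric acid cycle. It was the gluconeogenic gene with positive ratios, 0.31 (P+E over P+P) and 0.39 (E+E over E+P), from signals of 11430 on E+E and 11279 on P+E against 8699 on E+P and 9079 on P+P. The array carries control probe sets along the Pcx transcript as well. The one at the 3′ end gave 8752, 9376, 7211 and 6770 on E+E, P+E, E+P and P+P, in the same direction. The one at the 5′ end gave 722.7, 1532, 988.0 and 307.4, with ratios of 2.17 and -0.43. The controls between these ends were at 2.12 and -0.67 and at 1.46 and -0.06. In E+E over E+P only the 3′ control was thus above 0. The 3′ to 5′ control ratio of Pcx was 12.0 on E+E, 6.15 on P+E, 7.21 on E+P and 23.5 on P+P, a ratio that has the 5′ reading as its denominator. That of Gapdh was 0.97 on E+E, 0.94 on P+E, 0.91 on E+P and 1.06 on P+P.

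Of the regulators in the set, Foxo1 had signals of 2021 on E+E and 2772 on P+E, against 2929 on E+P and 3029 on P+P. Its ratios were -0.13 (P+E over P+P) and -0.53 (E+E over E+P), with E+E the lowest array. Ppargc1a, which encodes PGC-1α, had low signals: 45.0 on E+E and 222.2 on P+E, against 330.9 on E+P and 380.2 on P+P. The ratios were -0.67 in P+E over P+P and -2.08 in E+E over E+P, and with the E+E signal set to the filter level E+E was at least 2.29-fold lower than E+P. None of the 4 further Ppargc1a probe sets had this full order of arrays. The only one of them past the filter gave 163.1 on E+E, 15.1 on P+E, 249.6 on E+P and 186.1 on P+P, lowest on P+E. Both ethylbenzene arrays lay below both PBS arrays there too, with ratios of -1.98 and -0.51. Of those short of the filter, the probe sets at -1.53 and -1.12 in P+E over P+P also had this split. The one at 0.62 did not.

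**Figure D2:**
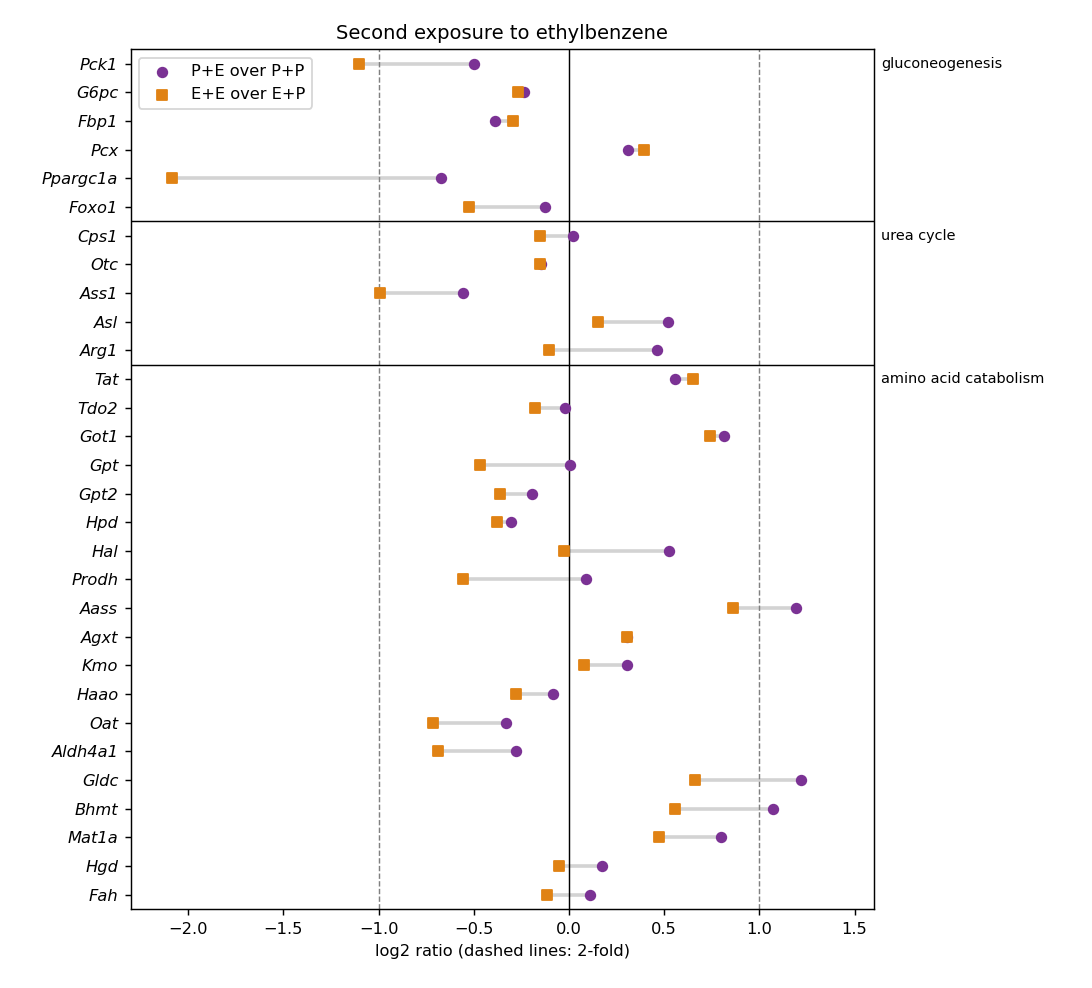
Log2 ratios of the 30 genes for the second exposure, P+E over P+P (circles) and E+E over E+P (squares), grouped by function; dashed lines mark 2-fold. Pck1 (-1.10) and Ppargc1a (-2.08) pass 2-fold lower in E+E over E+P, and Aass (1.19), Gldc (1.22) and Bhmt (1.07) pass it higher in P+E over P+P.

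In the urea cycle no gene was at least 2-fold different in either second-exposure ratio. Cps1, whose product captures ammonia as carbamoyl phosphate, had signals of 92098 on E+E and 96784 on P+E, against 102407 on E+P and 95271 on P+P. Otc, whose product joins carbamoyl phosphate to ornithine, had 29045 on E+E and 29163 on P+E, against 32269 on both E+P and P+P. On the probe sets used, the ratios of both genes stayed between -0.15 and 0.02, although for Cps1 they were 0.27 and 0.08 as deposited. A further bright Otc probe set gave 8343 on E+E and 6487 on P+E, against 10262 on E+P and 11845 on P+P. Its ratios were -0.86 (P+E over P+P) and -0.30 (E+E over E+P). A dim Otc probe set was at 0.19 and -0.41, so the Otc probe sets differed.

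Asl, encoding argininosuccinate lyase, gave 17968 on E+E and 25583 on P+E, against 16152 on E+P and 17814 on P+P, with ratios of 0.52 (P+E over P+P) and 0.15 (E+E over E+P). Arg1, encoding the arginase that releases urea, gave 56773 on E+E and 76318 on P+E, against 61084 on E+P and 55412 on P+P, with ratios of 0.46 and -0.11 (0.62 and 0.04 as deposited). P+E was the highest array for both of these genes.

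Ass1 encodes argininosuccinate synthase, which joins citrulline to aspartate. The probe set annotated to Ass1 alone was dim, with 153.9 on E+E and 230.6 on P+E, against 349.6 on E+P and 359.5 on P+P, and ratios of -0.56 (P+E over P+P) and -0.99 (E+E over E+P). A probe set with high signals is annotated to Ass1 and to Gm5424 together and was not assigned to either. It gave 78989 on E+E, 83686 on P+E, 81707 on E+P and 100628 on P+P, with ratios of -0.27 and -0.05, so the size seen on the dim probe set was not seen there.

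Among the amino acid catabolism genes, both ethylbenzene arrays lay above both PBS arrays for 8 of 19, beside 22.3% of all genes, and below them for 5 of 19, beside 31.1%. Aass, encoding the bifunctional enzyme that opens lysine degradation, had 15792 on E+E and 17392 on P+E, against 8660 on E+P and 7595 on P+P. Its ratios were 1.19 (2.28-fold higher, P+E over P+P) and 0.86 (1.82-fold higher, E+E over E+P). Gldc, the decarboxylase of the glycine cleavage system, had 3179 on E+E and 4614 on P+E, against 1996 on E+P and 1959 on P+P, with ratios of 1.22 (2.33-fold higher) and 0.66 (1.58-fold higher). For both genes the PBS arrays lay close to each other.

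Genes around the methionine cycle differed among themselves. Bhmt, whose product remethylates homocysteine with betaine, had 83686 on E+E and 127118 on P+E, against 56773 on E+P and 60448 on P+P. Its ratios were 1.07 (2.10-fold higher, P+E over P+P) and 0.56 (E+E over E+P), and 1.23 and 0.71 as deposited. Mat1a, which encodes the liver enzyme that makes S-adenosylmethionine, had 75592 on E+E and 81707 on P+E, against 54488 on E+P and 47024 on P+P, with ratios of 0.80 and 0.47. Of the further sulfur amino acid genes in the list of other catabolic enzymes, Cbs, which starts transsulfuration, was at 0.98 and 0.97, just short of 2-fold, and Cth, the next enzyme, at 0.85 and 0.27. Others stood near 0 or lower: Ahcy at 0.16 and -0.09, Gnmt at 0.19 and -0.10 (0.05 and 0.09 for Ahcy and Gnmt in E+E over E+P as deposited), and Bhmt2, a relative of Bhmt, at -0.11 and -0.48. These 5 genes were named after their values were seen.

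The aminotransferase genes differed among themselves. Got1, the cytosolic aspartate aminotransferase, had 12181 on E+E and 15114 on P+E, against 7268 on E+P and 8563 on P+P, with ratios of 0.82 (P+E over P+P) and 0.74 (E+E over E+P). Tat, which starts tyrosine breakdown, had 65181 on E+E and 80711 on P+E, against 41471 on E+P and 54943 on P+P, with ratios of 0.55 and 0.65. Both were higher on the ethylbenzene arrays but short of 2-fold. The alanine aminotransferase genes differed from them: Gpt had 5615 on E+E, 5947 on P+E, 7786 on E+P and 5913 on P+P, and Gpt2 had 8351, 9868, 10761 and 11316 in the same order. Their ratios were 0.01 (P+E over P+P) and -0.47 (E+E over E+P) for Gpt and -0.20 and -0.36 for Gpt2. Agxt, which converts glyoxylate to glycine, had 12226 on E+E and 11736 on P+E, against 9878 on E+P and 9500 on P+P, ratios of 0.30 and 0.31.

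The genes of proline and ornithine breakdown stood lower, mainly in mice given ethylbenzene first. Oat, ornithine aminotransferase, had 14066 on E+E and 16043 on P+E, against 23088 on E+P and 20175 on P+P, with ratios of -0.33 (P+E over P+P) and -0.71 (E+E over E+P). Aldh4a1, which makes glutamate from the product of the proline and ornithine routes, had 2070 on E+E and 2419 on P+E, against 3361 on E+P and 2947 on P+P, with ratios of -0.28 and -0.69. Prodh, proline dehydrogenase, had 5917 on E+E and 8742 on P+E, against 8717 on E+P and 8226 on P+P, with ratios of 0.09 and -0.56. For Prodh only E+E stood apart from the other arrays.

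In the tyrosine route, downstream of Tat, Hpd had 73384 on E+E and 79603 on P+E, against 95271 on E+P and 98313 on P+P, with ratios of -0.30 and -0.38 (-0.03 and -0.17 as deposited). Hgd lay between 26719 and 30120 and Fah, which completes the route, between 28145 and 31016 over the 4 arrays. Both thus differed little between any pair of arrays.

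For tryptophan, Tdo2, the first enzyme, had 76318 on E+E and 95271 on P+E, against 86463 on E+P and 96629 on P+P. Of the later kynurenine enzymes, Kmo lay between 8060 and 9963 and Haao between 10546 and 12815. Kynu, another enzyme of that route in the list of other catabolic enzymes, was at 0.81 (P+E over P+P) and 0.88 (E+E over E+P), and was named after its values were seen. Hal, which removes ammonia from histidine, had 7030 on E+E and 8905 on P+E, against 7161 on E+P and 6182 on P+P, with ratios of 0.52 and -0.03.

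The first exposure left fewer differences of 2-fold. In E+P over P+P, none of the 30 genes was at least 2-fold higher, beside 2.58% of all genes, and 1 was at least 2-fold lower (G6pc), beside 2.73%. In E+E over P+E, none was at least 2-fold higher, beside 3.98%, and 2 were at least 2-fold lower (G6pc and Ppargc1a), beside 3.99%. Among the 3837 genes with the highest signals, 0.469% were higher in E+P over P+P and 0.339% in E+E over P+E. In each of these ratios 0.235% of them were lower. With its E+E signal set to the filter level, Ppargc1a was at -0.70 in E+E over P+E, short of 2-fold.

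G6pc was 2.02-fold lower in E+P over P+P and 2.06-fold lower in E+E over P+E (ratios of -1.01 and -1.04). Both arrays of mice given ethylbenzene first, 6625 and 7977, lay below both arrays of mice given PBS first, 13685 and 16133. It was the only gene of the set at least 2-fold lower in both ratios, beside 28 of 11513 genes (0.243%), and none was higher in both, beside 0.226%. Among the 3837 genes with the highest signals, 2 were at least 2-fold lower in both first-exposure ratios: G6pc and Csad, with Csad a gene of the other catabolic enzymes named after this count was seen. Csad, which makes hypotaurine from cysteine sulfinate, had 3566 on E+E, 7211 on P+E, 3016 on E+P and 6392 on P+P, with ratios of -1.07 (E+P over P+P) and -1.01 (E+E over P+E). Both G6pc ratios lay just past 2-fold and each rests on 1 probe set and 2 arrays.

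The other gluconeogenic enzyme genes of the set were less than 2-fold apart. In the first-exposure ratios Pck1 was at 0.21 (E+P over P+P) and -0.40 (E+E over P+E), Fbp1 at -0.10 and 0.00, and Pcx at -0.06 and 0.02. Slc37a4, which encodes the transporter that brings glucose-6-phosphate to the enzyme made by G6pc, was at 0.07 and -0.33. G6pc3, a widely expressed relative of G6pc, had low signals of 136.5 on E+E and 241.9 on E+P, against 390.6 on P+E and 354.2 on P+P. It was at -0.48 (E+P over P+P) and -1.27 (2.41-fold lower, E+E over P+E), so both arrays of mice given ethylbenzene first lay below the others here too. It was the only one of the 10 other gluconeogenesis enzymes and carriers past the filter at least 2-fold lower in a first-exposure ratio. Slc37a4 and G6pc3 were named after their values were seen.

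**Figure D3:**
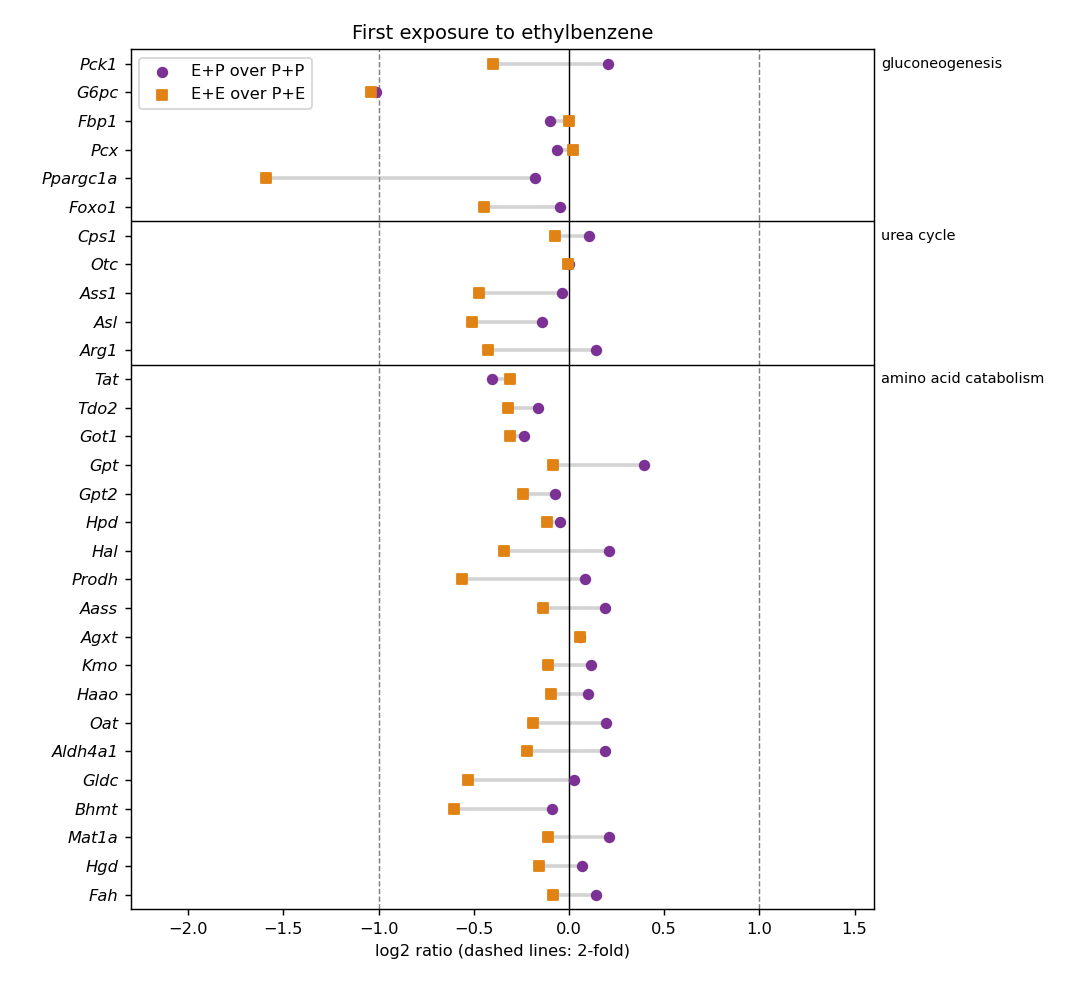
Log2 ratios of the 30 genes for the first exposure, E+P over P+P (circles) and E+E over P+E (squares), grouped by function; dashed lines mark 2-fold. G6pc is the only gene past 2-fold in both ratios (-1.01 and -1.04), and 27 of the 30 squares lie below 0.

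By order of arrays, without a rule of size, both arrays of mice given ethylbenzene first lay below both arrays of mice given PBS first for 2 of the 30 genes (G6pc and Tdo2), beside 12.2% of all genes (9.62% of the 3837 genes with the highest signals). They lay above for none, beside 10.6% (7.38%). For Tdo2 the ratios were -0.16 (-0.04 as deposited) and -0.32. A further Tdo2 probe set did not have this order, with 17742 on E+P above 15585 on P+P. The remaining one had it, with 8193 on E+E and 10330 on E+P, against 13486 on P+E and 11176 on P+P.

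A small shift in one direction ran through the set in E+E over P+E. This ratio does not show which of its 2 arrays carried the shift. The median of the set was above that of all genes in P+E over P+P (0.06 against -0.07). In E+E over E+P it was below (-0.15 against -0.05). In E+E over P+E, 27 of the 30 genes were below 0, beside 50.1% of all genes and 52.3% of the 3837 genes with the highest signals. The exceptions were Fbp1 at 0.00, Pcx at 0.02 and Agxt at 0.06. The median ratio was -0.23, against -0.00 for all genes. By function the medians were -0.42 for gluconeogenesis, -0.43 for the urea cycle and -0.19 for amino acid catabolism. It was not seen in E+P over P+P, where the median of the set was 0.04 against -0.01 for all genes. The largest of these ratios after those of Ppargc1a and G6pc were Bhmt (-0.60), Prodh (-0.56), Gldc (-0.53) and Asl (-0.51). Among the 48 other amino acid catabolism enzymes past the filter, 38 were below 0 in E+E over P+E, with a median of -0.10.

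The difference of the second-exposure ratios (E+E over E+P minus P+E over P+P) describes whether prior ethylbenzene went with another response, and it holds the error of all 4 arrays. It was below 0 for 26 of the 30 genes, beside 49.7% of all genes and 51% of the 3837 genes with the highest signals, with a median of -0.28 against 0.00. This count shares arrays with the count of E+E over P+E and is not a separate observation. Fbp1, Pcx, Tat and Agxt were at or above 0. The differences ranged from -1.41 for Ppargc1a to 0.10 for Fbp1. After Ppargc1a the most negative were Prodh (-0.64), Pck1 (-0.60), Arg1 (-0.57), Gldc (-0.56), Hal (-0.55) and Bhmt (-0.51).

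Those 6 genes reached the difference in unlike ways. Gldc and Bhmt stood higher after ethylbenzene in both ratios, with the smaller excess in mice given ethylbenzene first. Arg1 and Hal stood higher in mice given PBS first and near 0 otherwise. Prodh stood near 0 in mice given PBS first and lower otherwise. Pck1 stood lower in both ratios, with the larger deficit in mice given ethylbenzene first.

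A further probe set of a gene is another reading of the same pooled RNA, not a replicate. Of the 30 genes, 8 had several probe sets, with 18 further probe sets, 12 of them past the filter. Of these 12, 6 had the sign of the probe set used in P+E over P+P, 11 in E+E over E+P, 6 in E+P over P+P and 10 in E+E over P+E. Signs were thus shared more often in the ratios that contain the E+E array. The same ratios are those without the P+P array, and the parts of these arrays cannot be told apart. Tdo2, for example, was at -0.02, 0.40 and 0.27 over its 3 probe sets in P+E over P+P, but at -0.32, -0.61 and -0.72 in E+E over P+E. The second probe set of Gpt gave 494.8 on E+E, 567.3 on P+E, 317.2 on E+P and 563.0 on P+P, lowest on E+P, where the probe set used was highest.

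**Figure D4:**
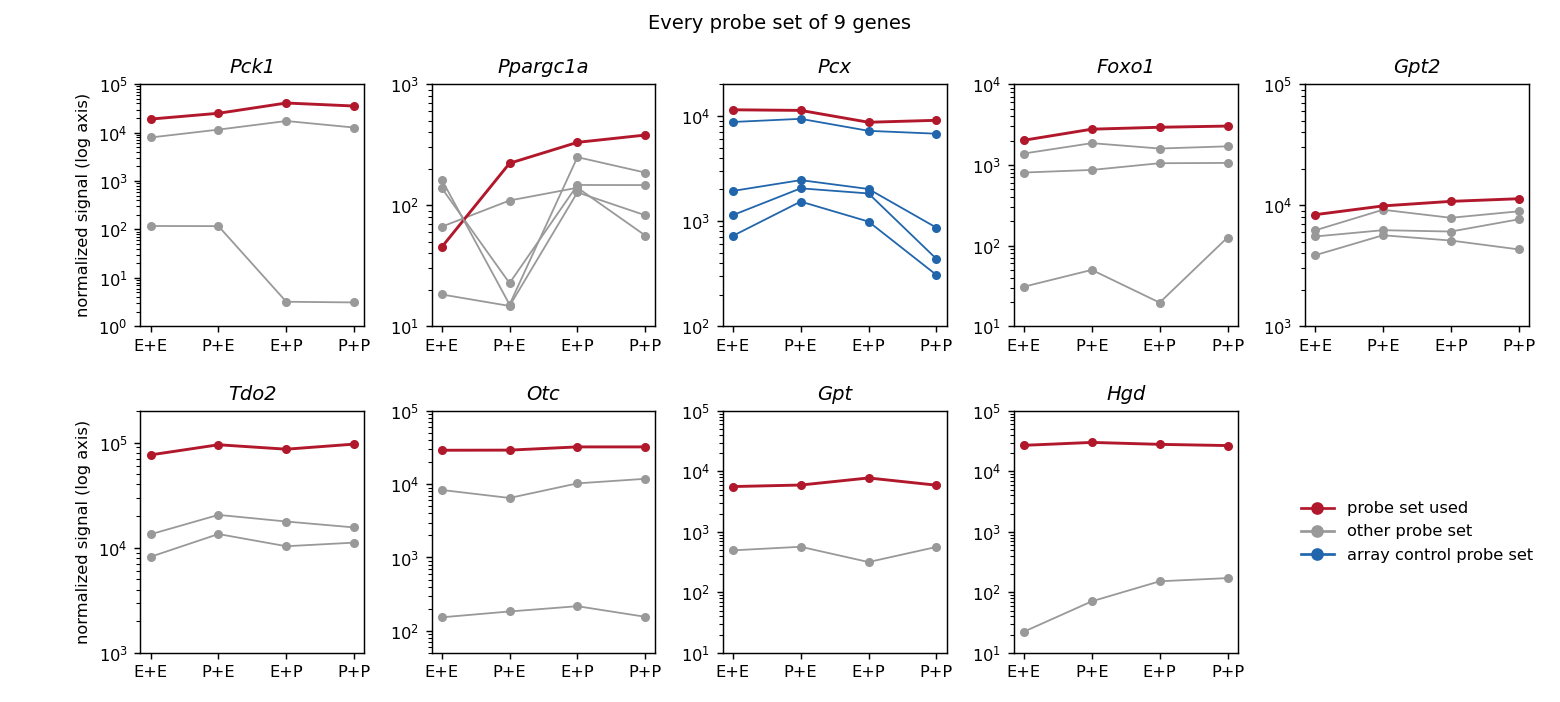
Normalized signal (log axes, which differ between panels) of every probe set of 9 genes on the 4 arrays; red is the probe set used, grey are further probe sets and blue are control probe sets of the array for Pcx. The bright Pck1 probe sets are lowest on E+E, the Ppargc1a probe sets lie at low signals and cross, and the 5′-ward Pcx controls are lowest on P+P.

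Other genes of the same pathways were set beside the 30. Their lists were chosen with earlier results of these data known, so their counts beside all genes are descriptions only. None of the 10 other gluconeogenesis enzymes and carriers or the 8 opposing glycolysis enzymes past the filter passed 2-fold in a shared direction in both second-exposure ratios. Nor did any of the 48 other amino acid catabolism enzymes or the 6 amino acid synthesis genes past the filter. Of all genes, 2.87% were higher in both and 1.86% lower in both. Median ratios of the other amino acid catabolism enzymes were 0.02 (P+E over P+P) and -0.12 (E+E over E+P). Genes past 2-fold in both were found in the lists of regulators, ammonia genes and transporters.

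Of 20 regulators of gluconeogenesis, 2 were at least 2-fold higher in both second-exposure ratios, beside 2.87% of all genes, and 3 lower, beside 1.86%. Cebpb, a C/EBP transcription factor gene of the acute response that also acts on Pck1, had 18393 on E+E and 18356 on P+E, against 7442 on E+P and 8498 on P+P, with ratios of 1.11 (P+E over P+P) and 1.30 (E+E over E+P). Cebpa, its relative that maintains hepatocyte metabolic genes, had 3377 on E+E and 2159 on P+E, against 7724 on E+P and 8967 on P+P, with ratios of -2.03 and -1.18. The related factors thus stood in opposite directions.

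Klf15, a transcription factor gene for amino acid breakdown and gluconeogenesis in fasting, had 1670 on E+E and 3271 on P+E, against 5593 on E+P and 6622 on P+P, with ratios of -1.01 and -1.72. Foxo3, a relative of Foxo1, had 430.9 on E+E and 686.0 on P+E, against 1411 on E+P and 1610 on P+P, with ratios of -1.18 and -1.62. For both genes the ethylbenzene arrays lay below both PBS arrays. Irs2, an adaptor of the insulin receptor, had 764.6 on E+E and 628.4 on P+E, against 304.6 on E+P and 51.9 on P+P. It was 2.32-fold higher in E+E over E+P and at least 4.11-fold higher in P+E over P+P, where P+P was set to the filter level.

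Of 9 other urea cycle and ammonia genes past the filter, Car5a was lower in both second-exposure ratios (1 of 9, beside 1.86% of all genes). Car5a encodes a mitochondrial carbonic anhydrase that supplies bicarbonate to the enzyme made by Cps1. It had 713.6 on E+E and 828.2 on P+E, against 1890 on E+P and 1889 on P+P, with ratios of -1.15 and -1.35. The enzyme genes of the cycle itself stayed below 2-fold. Urea cycle and gluconeogenic enzymes are known to be most abundant in periportal hepatocytes. Of 8 periportal markers, Hsd17b6 was at least 2-fold lower in both second-exposure ratios (1 of 8, beside 1.86% of all genes). The summed signals of the 8 were 116983 on E+E, 114732 on P+E, 139338 on E+P and 136084 on P+P. The part of this in the results was not tested.

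Of 11 amino acid transporter genes past the filter, Slc38a2 and Slc43a1 were higher in both (2 of 11, beside 2.87% of all genes) and Slc1a2 lower (1 of 11, beside 1.86%). In lists of this size such counts rest on single genes. Slc38a2, a sodium-coupled carrier of small neutral amino acids, had 17576 on E+E and 16100 on P+E, against 4472 on E+P and 6054 on P+P, with ratios of 1.40 and 1.96. Slc43a1, a carrier of large neutral amino acids, had 763.5 on E+E and 503.9 on P+E, against 203.6 on E+P and 222.0 on P+P, with ratios of 1.04 and 1.71. Slc1a2, a glutamate carrier of pericentral hepatocytes, had 1573 on E+E and 1739 on P+E, against 3852 on E+P and 3546 on P+P, with ratios of -1.01 and -1.27. Of 9 pericentral markers past the filter, Slc1a2 and Lgr5 were at least 2-fold lower in both (2 of 9, beside 1.86% of all genes). The summed signals of the measured pericentral markers were 195459 on E+E, 190268 on P+E, 220879 on E+P and 210540 on P+P.

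**Figure D5:**
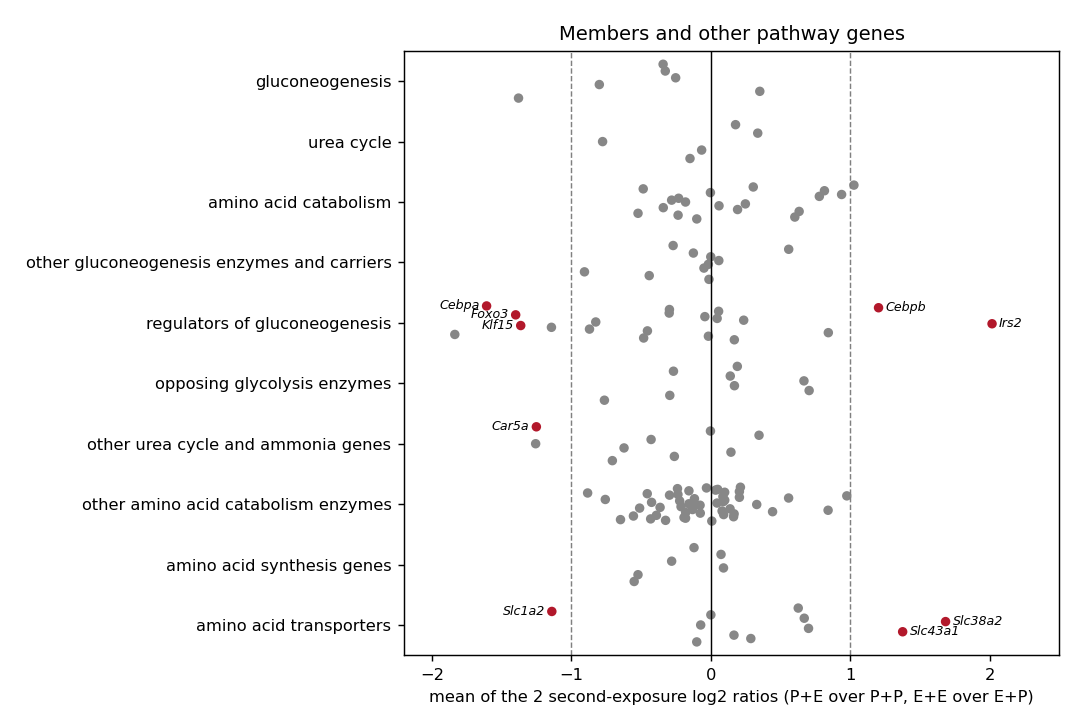
Mean of the 2 second-exposure log2 ratios (P+E over P+P and E+E over E+P) for each gene past the filter, by list, with the 3 functions of the set in the top rows; dashed lines mark 2-fold and red points are genes past 2-fold in a shared direction in both ratios. Red points occur among regulators of gluconeogenesis, urea cycle and ammonia genes and transporters, and none among the 30 genes of the set.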

How the data were processed

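Liver RNA pooled by group was read on 4 Affymetrix arrays, 1 per group, per the labels' protocols and the series design. The deposited values were intensities, linear signals of 45101 probe sets per array, which the authors had scaled to a common trimmed mean as the values show; the summarising software is not given in the sources used here. Quantile normalization of the 4 arrays was followed by log2(signal + 43.2), with the 25th percentile of all deposited signals as pseudocount. The pseudocount understates differences of dim genes, and the normalization can enlarge or shrink those of the brightest. Gene symbols came from the platform annotation and were updated by Entrez identifier against a RefSeq table (GRCm38.p6). The 932 probe sets with several symbols and 64 controls were not assigned to genes. A gene was read from its probe set of highest mean log2 signal and kept where that mean was at or above the median over all probe sets (120.0). The steps were tested on simulated arrays.

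The rule of size was 2-fold. The number of arrays limits the precision. The members, lists and motifs were chosen with earlier results of these data known. The rule was to give array values for genes of the set at least 2-fold different in either ratio of an exposure. It also took in the urea cycle and gluconeogenic enzyme genes. Of each further list it took genes past 2-fold in a shared direction in both second-exposure ratios. Outside this rule, array values were also given for Foxo1, further amino acid catabolism genes of the set, Csad and G6pc3. Alternatives covered normalization, pseudocount, probe sets, filter, low signals and the rule of size. Promoter windows are RefSeq's. Python 3.11.15, numpy 2.4.6 and pandas 2.3.3 were used.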

Additional observations from a re-analysis of the deposited data

Results flagged for a closer look

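Some genes of the set stood more than 0.1 above 0 in one log2 ratio and more than 0.1 below 0 in the other ratio of the same exposure, on the normalized scale, with the groups on opposite sides of 0. With 1 array per group none of these differences was tested, and no explanation was weighed.

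For the second exposure these genes were Arg1, at 0.46 in P+E over P+P and -0.11 in E+E over E+P, a difference of -0.567, and Fah, at 0.11 and -0.11, a difference of -0.223. As deposited, Arg1 was at 0.62 and 0.04 and Fah at 0.04 and -0.13, so neither then stood more than 0.1 on both sides of 0, and Arg1 was above 0 in both. For the first exposure the ratios are E+P over P+P and then E+E over P+E. Pck1 was at 0.21 and -0.40 (difference -0.604), Arg1 at 0.14 and -0.43 (-0.567) and Hal at 0.21 and -0.34 (-0.55). Aldh4a1 was at 0.19 and -0.22 (difference -0.407) and Oat at 0.19 and -0.19 (-0.383). Aass was at 0.19 and -0.14 (difference -0.327), Mat1a at 0.21 and -0.11 (-0.325, with -0.09 in E+E over P+E as deposited) and Kmo at 0.12 and -0.11 (-0.224). Every one of these differences was negative. The lower ratio was in the pair that contains the E+E array and the higher in the pair that contains the P+P array. The differences of an exposure hold the same 4 arrays, so the values for the first and the second exposure of Arg1 are the same number.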

How the results depend on the processing

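No ratio at least 2-fold apart changed sign under the alternatives in which its gene was read, but some smaller ratios did. Ppargc1a did not pass the filter with the mean of all probe sets or with the 75th percentile filter. Its ratios were thus not read in those settings. The further Ppargc1a probe set past the filter was at 1.82 in E+E over P+E, opposite in sign to the probe set used. With the mean of all probe sets Pck1 was at 0.38 in P+E over P+P, against -0.50 otherwise, and at a common 75th percentile Gldc was at -0.01 in E+P over P+P, against 0.03. As deposited the sign changed for Tdo2 (0.21) and Gpt (-0.03) in P+E over P+P, for Cps1 (0.08) and Arg1 (0.04) in E+E over E+P, for Fbp1 (0.04) and Hpd (0.07) in E+P over P+P and for Otc (0.03) in E+E over P+E. The count at least 2-fold lower in E+E over E+P (2 genes) was 0 with the mean of all probe sets, where Pck1 was at -0.14 in that ratio, and 1 with a 75th percentile filter, which removed Ppargc1a. The count lower in E+E over P+E (2 genes) was 1 with each of these settings and 1 with dim signals raised to the filter level. With a 1.5-fold rule, 5 genes were higher and 1 lower in P+E over P+P, 4 higher and 5 lower in E+E over E+P, and 3 higher and 1 lower in both. Deposited signals, a common 75th percentile, other pseudocounts, no filter, removal of probe sets ending _s_at or _x_at, and counting probe sets with several symbols (added after the data were seen) moved no count of the 30 genes by over 1.5 times. The number below 0 in E+E over P+E was 25 to 27 in every setting. Counts over all genes depended on the filter: without it 3620 genes (P+E over P+P), 3646 (E+E over E+P), 2512 (E+P over P+P) and 3047 (E+E over P+E) were at least 2-fold apart, and 618, 668, 72 and 94 with the 75th percentile filter. At a common 75th percentile 1 regulator of gluconeogenesis was higher in both second-exposure ratios. No paired analysis was possible because each group has 1 array, and no array could be left out for the same reason. Ratios of Ppargc1a and the dim Ass1 probe set are limited by signal over background.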
